A study of Mus musculus with 15 samples.

Results

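The classical complement pathway was represented on the panel by 7 genes taken by symbol from the 561 measured: C1qa, C1qb, C1ra, C1s, C2, C4a and Serping1. Gene expression was counted with the nCounter Mouse Immunology Panel, an assay in which a colour-coded probe pair binds each mRNA and the barcodes are tallied without amplification. RNA came from red-cell-lysed spleen suspensions of female C57BL/6J mice aged 6 to 8 weeks, in 15 samples that formed 5 groups of 3. The groups were Sham, uninjured mice; WBIR, mice given 9 Gy of whole-body ionizing radiation; RCI, mice given 9 Gy and a burn over 20% of the body surface; and each injury followed by mouse mesenchymal stem cell vesicles (WBIR+MSC-EVs and RCI+MSC-EVs). The study's burn procedure also included tribromoethanol anaesthesia, morphine, an injection of Lactated Ringer's solution and morphinated drinking water. Its WBIR protocol describes none of these. Its sham groups for RCI had the procedure without burn or radiation. In the text below, burn effect and burned refer to that whole procedure. The vesicles were injected intravenously 72 h after injury and spleens were taken 48 h later. The untreated RCI samples are labelled as given PBS, the untreated WBIR labels name no vehicle, and no vesicle-treated Sham samples were analysed here. The study's text speaks of mice per group and also of samples run in triplicate, and no label ties a sample to a mouse, so the p-values measure the spread between these samples, which may be technical.

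Complement is a cascade of plasma proteins that tags microbes and dying cells. Its classical branch starts when C1q, a hexameric recognition protein built from A, B and C chains, binds antibody or altered surfaces and turns on the attached serine proteases C1r and C1s. C1s then cuts C4 and C2, whose fragments form the C3 convertase, and the C1 inhibitor encoded by Serping1 shuts C1r and C1s off. In most tissues, spleen included, C1q is made mainly by macrophages and dendritic cells, whereas C1r, C1s and C1 inhibitor are also made by stromal cells and hepatocytes.

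The table held other complement genes as well, 24 in all, which are described only where they bear on the 7. In mouse assembly GRCm38.p6, C1qa (chromosome 4, 136895916 to 136898844) and C1qb (chromosome 4, 136880126 to 136886200) flank C1qc, the gene of the third chain, which is not among the genes of the table. C1ra (chromosome 6, 124512621 to 124523440) lies next to the gene for C1s (chromosome 6, 124530344 to 124542392), now named C1s1. Both have a close paralogue nearby, C1rb and C1s2. C2 (chromosome 17, 34862602 to 34882100) and C4a (chromosome 17, 34809092 to 34823460) sit in the major histocompatibility complex. RefSeq annotates C4a, also known as sex-limited protein, as a transcribed pseudogene, and its near-identical neighbour C4b (34728139 to 34743902 on the same chromosome) encodes C4. Serping1 lies at 84765360 to 84775444 on chromosome 2. Probe sequences were not analysed here, so C4a counts may include C4b transcripts, and C1ra and C1s counts may include C1rb and C1s2 transcripts.

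RefSeq upstream sequences (GRCm38.p6) were matched for 3 of the 7 genes. They are shown because these were the members with an upstream sequence available. Among them, C1ra and C1s varied together across the 12 irradiated samples (r = 0.92), and C1qb had the highest counts of the 7. Each sequence is written 5′ to 3′ and ends at the base before the gene: 250 bases for C1qb (chr4:136886201-136886450, minus strand) and C1ra (chr6:124512371-124512620, plus strand), and 217 bases for C1s (chr6:124542393-124542609, minus strand), from which 33 bases inside the annotated gene were left out. Capitals mark a PU.1 core motif.
C1qb: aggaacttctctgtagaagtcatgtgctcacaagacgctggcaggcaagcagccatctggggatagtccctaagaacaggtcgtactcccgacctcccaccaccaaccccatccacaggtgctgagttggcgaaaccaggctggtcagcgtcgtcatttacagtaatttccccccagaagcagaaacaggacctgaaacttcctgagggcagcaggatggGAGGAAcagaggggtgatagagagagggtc
C1ra: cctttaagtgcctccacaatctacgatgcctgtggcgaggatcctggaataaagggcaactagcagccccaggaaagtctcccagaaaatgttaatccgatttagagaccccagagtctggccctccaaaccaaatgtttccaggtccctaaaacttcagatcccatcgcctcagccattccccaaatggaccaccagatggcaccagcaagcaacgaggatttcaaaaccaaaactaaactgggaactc
C1s: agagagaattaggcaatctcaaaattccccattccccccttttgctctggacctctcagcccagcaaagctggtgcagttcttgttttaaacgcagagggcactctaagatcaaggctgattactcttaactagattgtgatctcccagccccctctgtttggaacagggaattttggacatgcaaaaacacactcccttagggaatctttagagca
The C1qb sequence held 1 PU.1 core (GAGGAA) from -30 to -25 relative to the start, a motif of a myeloid transcription factor found on either strand in 23.3% of the 32851 RefSeq windows of 250 bases. The windows of C1ra and C1s held none of the 3 motifs searched on both strands. The other motifs were the interferon-stimulated response element (GAAA, any 2 bases, GAAA), in 2.98% of windows, and the gamma-activated site TTCNNNGAA, in 7.02%. A match or its absence describes these letters only.

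Total counts ranged from 90127 (WBIR+MSC-EVs replicate 1) to 598872 per sample. Each sample was scaled to the geometric mean of the panel's 14 reference genes, and values below are these scaled counts unless called raw. The references themselves moved with injury: G6pdx differed by 2.83 and Tbp by -1.30 between WBIR and Sham on the scaled log2 scale. Between RCI and WBIR, Tubb5 differed by -1.99 on that scale. Trimmed mean of M-values (TMM) scaling moved the median of all genes up by 0.37 to 0.71 log2 units against Sham. It moved that median by -0.18 between RCI and WBIR. TMM scaling is therefore given wherever it changed the call of one of the 7 or the count of a list. RCI replicate 3 stood apart among the irradiated samples, with the lowest C1qa (2060.1) and C1qb (4778) and the highest C4a (712) and Serping1 (187). Values without it are given for several results on the 7 genes.

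All 7 genes were higher than Sham after WBIR, with or without vesicles, and after RCI alone, and 6 of the 7 were higher in RCI+MSC-EVs (edgeR quasi-likelihood test, adjusted p under 0.05 over 426 tested genes). The fitted increases ran from 1.37 log2 units for Serping1 after WBIR to 4.10 for C4a after RCI. All 7 passed the filter of a mean of at least 20 raw counts over the 15 samples. C1ra and C1s reached that mean only through the irradiated samples, with raw counts of 5 to 23 and 4 to 18 in Sham. Of all genes tested, 21.6% were called higher after WBIR and 26.5% after RCI, and with vesicles the shares were 22.8% and 23.9%. The median of the 7 was 2.53 log2 units after WBIR and 2.95 after RCI, and 2.73 and 2.84 with vesicles. Over all tested genes the medians were -0.74, -0.53, -0.61 and -0.45 in the same order. These 4 comparisons share the same Sham samples. In every irradiated group all 7 genes lay wholly above the 3 Sham samples, as did 23.5% of all tested genes after WBIR and 22.8% after RCI, and 24.4% and 28.2% with vesicles. In a bulk spleen suspension a change in the share of a cell type and a change in RNA per cell cannot be told apart.

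**Figure D1:**
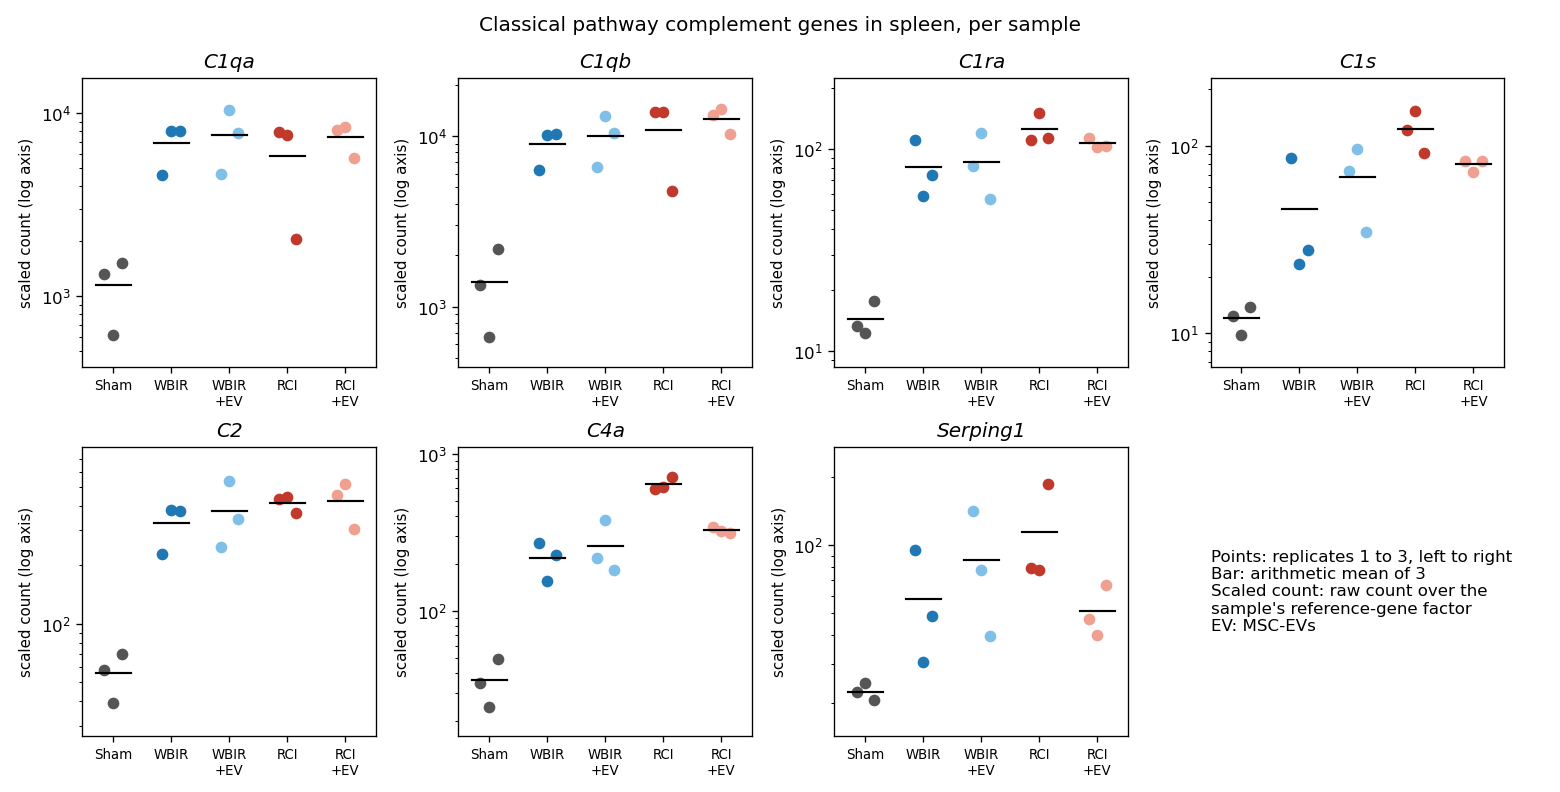
Scaled counts of the 7 genes in each of the 15 samples, on log axes, with points for replicates and a bar for the mean of 3. Every irradiated sample lies above every Sham sample for all 7 genes; C4a separates RCI (599 to 712) from the other irradiated groups, and the third RCI sample is the lowest irradiated point for C1qa and C1qb.

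The recognition chains carried the highest counts of the 7. C1qa measured 1317, 612 and 1515 scaled counts in the 3 Sham samples. It measured 4625, 8021 and 8019 in WBIR and 4647, 10375 and 7824 in WBIR+MSC-EVs. It measured 7939.7, 7664 and 2060.1 in RCI and 8151, 8399 and 5733 in RCI+MSC-EVs. The third RCI sample was the irradiated sample nearest to Sham, while the 4 irradiated groups overlapped with each other. The increase over Sham was 2.58 ± 0.51 log2 units (SE, n = 3 against 3; edgeR adjusted p = 0.00051) in WBIR and 2.36 ± 0.51 (edgeR adjusted p = 0.00093) in RCI. Without RCI replicate 3 the RCI value for C1qa was 2.76 ± 0.42.

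C1qb, the B chain, measured 1329.5, 666 and 2159 in Sham. In WBIR it measured 6287, 10169.6 and 10279.7, and in WBIR+MSC-EVs 6557, 13022 and 10338. In RCI it measured 13723, 13774 and 4778, and in RCI+MSC-EVs 13329.8, 14335 and 10259. Its highest values were in the burned groups, although RCI replicate 3 lay below every other irradiated sample. C1qb was 2.68 ± 0.49 log2 units above Sham in WBIR (edgeR adjusted p = 0.00026) and 2.95 ± 0.50 in RCI (adjusted p = 0.00013). With vesicles C1qb was 2.85 ± 0.49 above Sham after WBIR (edgeR adjusted p = 0.00018) and 3.19 ± 0.50 after RCI (adjusted p = 8.3e-05).

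The protease genes had far fewer counts, and their Sham values rest on few molecules. C1ra measured 13.3, 12.2 and 17.7 scaled counts in Sham, from raw counts of 5 to 23. It measured 111, 58.7 and 74.1 in WBIR, 82.4, 119.6 and 56.6 in WBIR+MSC-EVs. After the added burn it measured 110.3, 151 and 114 in RCI and 113, 102 and 103 in RCI+MSC-EVs. Its 2 burned groups overlapped with the upper part of both WBIR groups. The increase over Sham was 2.45 ± 0.35 log2 units in WBIR and 3.07 ± 0.35 in RCI (edgeR adjusted p = 3.0e-05 and 4.6e-06).

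C1s measured 12.4, 9.8 and 13.8 in Sham, from raw counts of 4 to 18. It measured 86.2, 23.3 and 27.8 in WBIR and 73.6, 96.6 and 34.6 in WBIR+MSC-EVs. It measured 122, 153 and 92 in RCI and 83.2, 72.4 and 83 in RCI+MSC-EVs. All 3 RCI samples were above all WBIR samples and all RCI+MSC-EVs samples. The spread was widest in WBIR, where WBIR replicate 1 was far above the other two. C1s was 1.86 ± 0.52 log2 units above Sham in WBIR (edgeR adjusted p = 0.0054) and 3.29 ± 0.52 in RCI (adjusted p = 8.2e-05). With vesicles C1s was 2.44 ± 0.52 above Sham after WBIR (edgeR adjusted p = 0.00087) and 2.67 ± 0.52 after RCI (adjusted p = 0.00045).

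Among the convertase genes, C2, the protease subunit, measured 58, 39.2 and 69.9 in Sham. It measured 228, 383 and 377 in WBIR, 247, 538 and 343 in WBIR+MSC-EVs. After the added burn it measured 433, 447 and 366 in RCI and 455, 518 and 303 in RCI+MSC-EVs. C2 had the narrowest spread of the 7 among irradiated samples, a 2.36-fold range over 12, and its 4 irradiated groups overlapped. The increases over Sham lay between 2.53 ± 0.34 (WBIR) and 2.90 ± 0.34 (RCI+MSC-EVs) log2 units (edgeR adjusted p = 1.9e-05 and 8.3e-06).

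C4a showed the largest single change of the set. It measured 34.8, 24.5 and 49.1 in Sham, 269, 155 and 227 in WBIR, and 218, 379 and 183 in WBIR+MSC-EVs. It measured 599, 609 and 712 in RCI, and 340.2, 321 and 313 in RCI+MSC-EVs. The 3 RCI samples were above every other sample in the study, and RCI+MSC-EVs lay below RCI and above all WBIR samples with a coefficient of variation of 4.34%. C4a was 2.53 ± 0.32 log2 units above Sham in WBIR and 4.10 ± 0.34 in RCI, and with vesicles 2.80 ± 0.33 and 3.12 ± 0.33 (edgeR adjusted p between 4.2e-07 and 1.3e-05).

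Serping1, the inhibitor, had the smallest increase over Sham in 3 of the 4 groups. It measured 22.4, 24.5 and 20.7 in Sham, from raw counts of 10 to 27. It measured 95.2, 30.4 and 48.9 in WBIR, 141, 77.5 and 39.6 in WBIR+MSC-EVs. After the added burn it measured 79.8, 77.9 and 187 in RCI and 47, 40.2 and 67 in RCI+MSC-EVs. All irradiated samples were above Sham, but each irradiated group overlapped with at least one other. The increase was 1.37 ± 0.54 log2 units in WBIR (edgeR adjusted p = 0.0351), 1.89 ± 0.54 in WBIR+MSC-EVs (adjusted p = 0.0068) and 2.37 ± 0.54 in RCI (adjusted p = 0.0012). Serping1 in RCI+MSC-EVs was 1.20 ± 0.54 above Sham and missed the threshold (edgeR adjusted p = 0.0610), but passed it with TMM scaling (adjusted p = 0.0368). Without RCI replicate 3 the Serping1 increase in RCI was 1.82 ± 0.52 (adjusted p = 0.0068), and the WBIR call was lost without WBIR replicate 1 (0.83, adjusted p = 0.189) or without any 1 of the Sham samples (adjusted p of 0.0613 to 0.0908).

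**Figure D2:**
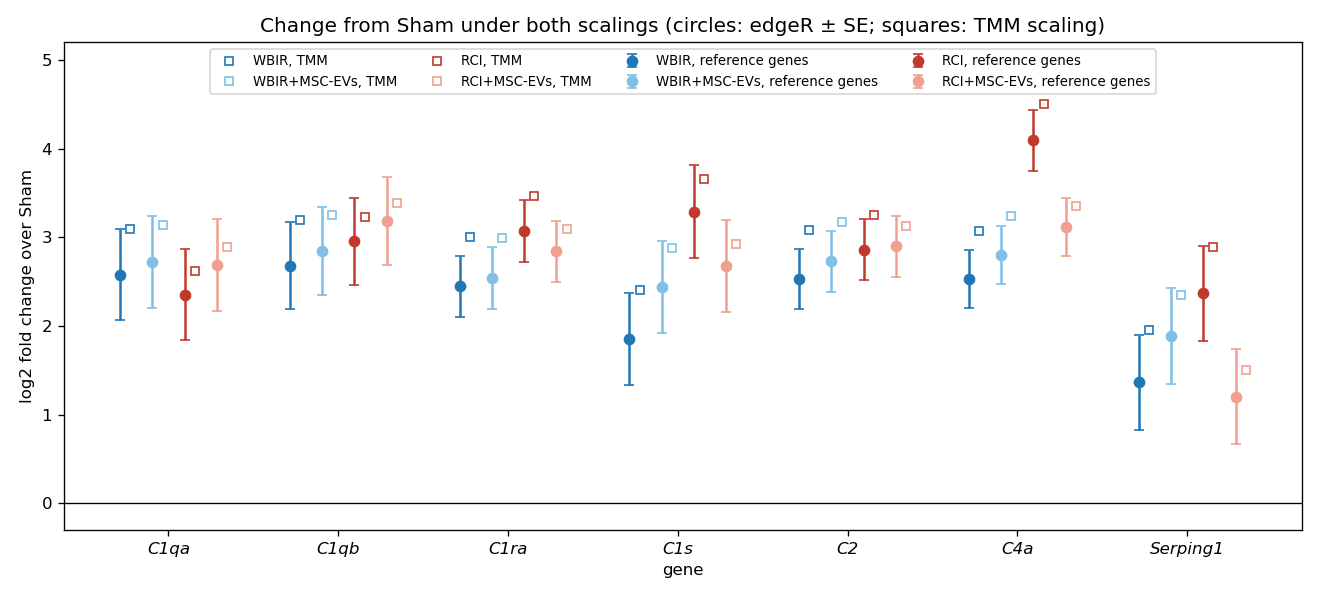
Log2 fold change over Sham for each gene and irradiated group; circles with bars are edgeR estimates ± SE with reference-gene scaling and open squares are the same estimates with TMM scaling. C4a in RCI is highest (4.10), Serping1 in WBIR and RCI+MSC-EVs is lowest (1.37 and 1.20), and TMM places every point higher.

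Macrophage markers and lymphocyte markers moved alongside these increases. Of 12 macrophage genes tested, 11 were higher than Sham in WBIR, RCI and RCI+MSC-EVs and all 12 in WBIR+MSC-EVs. Their median increases were 2.13 to 2.49 log2 units. With TMM scaling all 12 were higher in every irradiated group except RCI, where 11 were. Of all tested genes, 21.6% to 26.5% were higher than Sham, and 31% to 35.4% with TMM scaling. The summed scaled counts of the macrophage genes were 4737 to 4936 in Sham and 17062 to 42987 in irradiated samples. The sums reached 27147 in WBIR, 33105 in WBIR+MSC-EVs and 29891 in RCI+MSC-EVs. The top of the range was in RCI, where Marco alone reached 27539. The defining markers Emr1, Csf1r, Cd163 and Marco all had scaled counts well above 0. Emr1, Csf1r and Marco lay above all Sham samples in every irradiated group. Cd163 overlapped with Sham in RCI, at 93.2 to 998 scaled counts against 203 to 427 in Sham. Emr1, which encodes F4/80, averaged 271 ± 27.8 in Sham and 4317 ± 119 in RCI (SD, n = 3). The 10 genes of the B cell list were all lower in each irradiated group, and 12 or 13 of the 14 of the T cell list were, under both scalings. The T cell list includes Cd3eap, which overlapped between Sham (36.1 to 102.9 scaled counts) and WBIR (42.5 to 52.7). The B cell list includes Cr2, which is also among the other complement genes. Of all tested genes, 46.9% were lower than Sham in WBIR and 43% in RCI, and 45.1% and 41.3% with vesicles. Of 11 genes tested from the stromal and endothelial list, 4 to 6 were higher (5 to 7 with TMM scaling) and 2 lower. That list includes Tgfbi, which had r = 0.99 with C1qa over the 12 irradiated samples. Pdgfrb was near 0, at 2.45 to 7.68 scaled counts in Sham. The part of these shifts in the complement values was not tested.

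Whether a burn on top of radiation changed the pathway was not settled, since only C4a was called and that call depended on the scaling. RCI against WBIR also cannot separate the burn from the anaesthesia, morphine and fluid described for RCI alone. C4a was higher in RCI than in WBIR by 1.56 ± 0.30 log2 units (2.95-fold; edgeR adjusted p = 0.0191), and its group means were 640 ± 62.4 and 217 ± 57.6 scaled counts (SD, n = 3). It was the only member called of the 7, where 0.704% of all genes (3 of 426) were called. Over all tested genes the median difference was 0.20 log2 units (0.021 with TMM scaling). With TMM scaling the C4a difference was 1.43 and missed the threshold (adjusted p = 0.0634), as it did under each other scaling tried, with the replicate number as a block (adjusted p = 0.0543), with only these 2 groups fitted (adjusted p = 0.0631), without WBIR replicate 2 (1.37, adjusted p = 0.164) and without WBIR replicate 3 (1.60, adjusted p = 0.0810). Without RCI replicate 3 the C4a difference was 1.48 (adjusted p = 0.0476).

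C1s was also without overlap between RCI and WBIR, at 1.43 ± 0.46 log2 units (95% interval 0.44 to 2.43), and did not pass after adjustment (edgeR adjusted p = 0.126). It passed without WBIR replicate 1 (C1s difference 2.25, adjusted p = 0.0255) and in DESeq2 (adjusted p = 0.0464). C4a and C1s were 2 of the 7 whose groups did not overlap, and 27% of all tested genes did not. The other 5 differences were uncertain in size. They ran from -0.23 (interval -1.27 to 0.81) for C1qa to 1.00 (interval -0.06 to 2.06) for Serping1, and for C1ra the value was 0.62 (interval -0.03 to 1.28).

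Among the vesicle-treated samples, no member passed the edgeR test between RCI+MSC-EVs and WBIR+MSC-EVs (0% of all genes were called), and 0 of the 7 had an unadjusted p under 0.05. None of the 7 was without overlap, against 29.8% of all tested genes. The C4a difference here was 0.31 ± 0.29 log2 units (interval -0.32 to 0.95), and that of Serping1 was -0.68 (interval -1.77 to 0.40). Averaged over treatment, the burn effect on C4a was 0.94 ± 0.21 log2 units (edgeR adjusted p = 0.0320; 0.78 and adjusted p = 0.0714 with TMM scaling). It was again the only member called, where 3.05% of all genes were (28 of 426 genes with TMM scaling). None of the 7 was without overlap, against 9.62% of all genes. Over all tested genes the median of the averaged effect was 0.23 log2 units (0.044 with TMM scaling). The averaged C1s effect was 0.83 ± 0.32 (interval 0.14 to 1.53; edgeR adjusted p = 0.123). The averaged C4a call was lost in 7 of the 15 fits that left out 1 sample, those without WBIR replicates 2 or 3, WBIR+MSC-EVs replicates 1 or 3, or any RCI+MSC-EVs replicate (adjusted p of 0.0601 to 0.0919).

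The vesicle comparisons asked whether MSC-EVs changed expression after each injury. After WBIR alone, none of the 7 genes passed the test or was without overlap, where 0% of all genes were called and 8.92% did not overlap. The differences between WBIR+MSC-EVs and WBIR lay between 0.10 ± 0.31 log2 units for C1ra and 0.59 ± 0.47 for C1s. The intervals reached 1.60 for Serping1 and 1.59 for C1s, so changes of that size were not excluded.

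After RCI, no member passed the edgeR test either, and 0% of all genes did. DESeq2 and limma also called 0 of the 7 after both injuries, and at an unadjusted edgeR p under 0.05 the count was 0 after WBIR and 2 after RCI. C4a, C1s and Serping1 were nonetheless lower in all RCI+MSC-EVs samples than in all RCI samples, 3 of the 7 genes, where 10.8% of all genes did not overlap. The C4a difference was -0.98 ± 0.29 log2 units (interval -1.61 to -0.35; edgeR adjusted p = 0.848). The Serping1 difference was -1.17 ± 0.50 (interval -2.23 to -0.10; edgeR adjusted p = 0.989), and was -0.62 ± 0.50 without RCI replicate 3. The C1s difference was -0.62 ± 0.45 (interval -1.58 to 0.35). C1qa, C1qb and C2 did not share that direction: their values were 0.34 ± 0.48, 0.23 ± 0.46 and 0.04 ± 0.31. The C1ra difference was -0.23 ± 0.30 (interval -0.88 to 0.42).

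**Figure D3:**
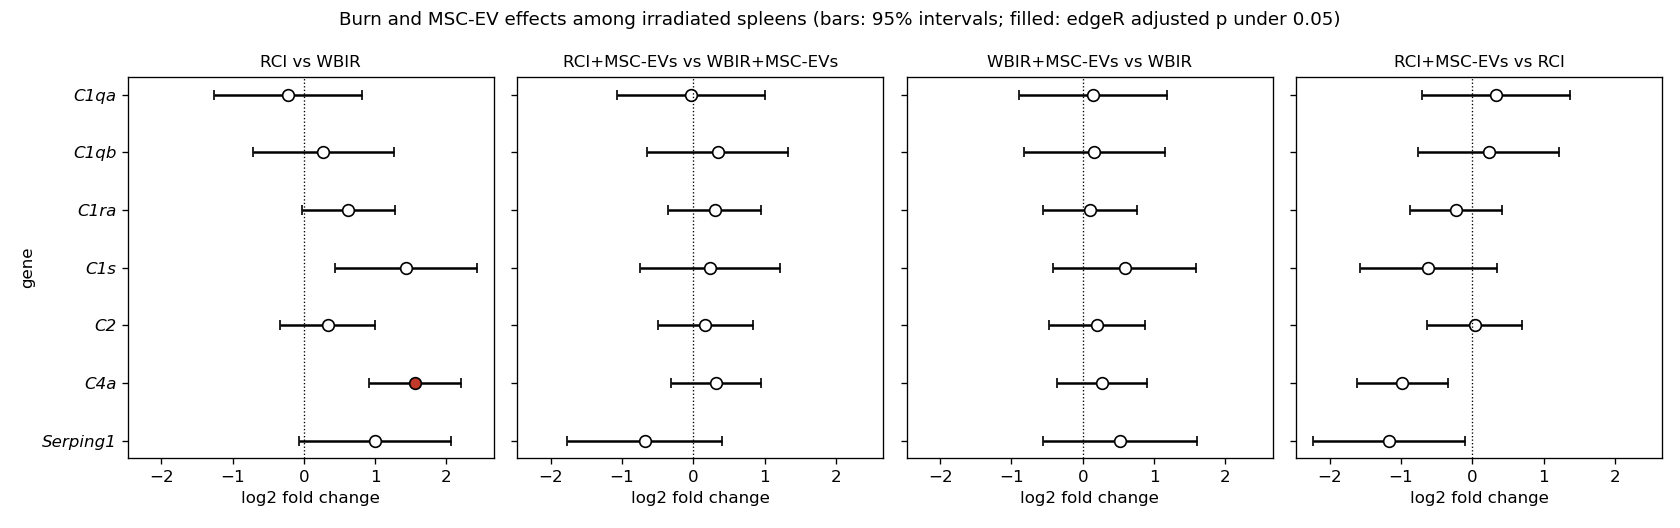
Log2 fold changes between irradiated groups with 95% intervals for the 7 genes; the filled point passed the test. The C4a burn effect without vesicles (1.56) is the filled point, and in the comparison of RCI+MSC-EVs with RCI only the C4a and Serping1 intervals lie wholly below 0.

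The difference between the vesicle effects of the 2 injuries was tested directly as an interaction. It was -1.25 ± 0.42 log2 units for C4a (interval -2.14 to -0.35), -1.68 ± 0.71 for Serping1 (interval -3.20 to -0.17) and -1.21 ± 0.65 for C1s (interval -2.60 to 0.18). None passed after adjustment over all genes (edgeR adjusted p = 0.998), and without RCI replicate 3 the Serping1 value was -1.13 ± 0.67. No gene of the panel passed that test (0%) or the vesicle effect averaged over injury (0%). Averaged over injury, the C4a value was -0.36 (interval -0.80 to 0.09), and at an unadjusted p under 0.05 the counts of the 7 were 0 for the average and 2 for the interaction.

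Ratios of 2 members within a sample need no scaling. Among 15 tests (5 ratios in 3 comparisons), 1 passed after adjustment: C1qa relative to C1qb differed between the burned and unburned irradiated samples. The ratio of raw counts was 0.736, 0.789 and 0.780 in WBIR and 0.709, 0.797 and 0.757 in WBIR+MSC-EVs. It was 0.579, 0.556 and 0.431 in RCI and 0.612, 0.586 and 0.559 in RCI+MSC-EVs. Every burned sample was below every unburned irradiated sample, with or without vesicles. The mean log2 ratio differed by -0.47 between burned and unburned samples (6 against 6; exact two-sided permutation p = 0.0022, the smallest that 924 assignments allow; adjusted p = 0.0325). Without RCI replicate 3 that difference was -0.40 at the same adjusted p. The difference in medians was -0.43 and did not pass (exact permutation test, adjusted p = 0.115). The permutations treated the 12 irradiated samples as exchangeable, with treated and untreated samples pooled. Same-numbered treated and untreated samples deviated together within each injury. The 6 samples a side may therefore not be independent, and these permutation p-values may be too small. In Sham the C1qa to C1qb ratio was 0.991, 0.919 and 0.702, and the 12 irradiated samples were lower by a mean of -0.41 log2 units, which did not pass (exact permutation p = 0.0374, adjusted p = 0.187). Counts of both genes were at least 250 in every sample.

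The 4 other ratios did not pass. Serping1 relative to C1ra, the inhibitor against a protease it blocks, was 1.69, 2.00 and 1.17 in Sham and 0.393 to 1.71 in irradiated samples, a difference of -1.17 log2 units (exact permutation p = 0.0132, adjusted p = 0.0989). C4a relative to C2 was 1.36 to 1.94 in RCI and 0.405 to 1.18 in all other irradiated samples, and the burned samples as a whole were higher by 0.70 log2 units (exact permutation p = 0.0649, adjusted p = 0.244). C1s relative to C1ra was 0.375 to 0.779 in WBIR and 0.810 to 1.11 in RCI, a burn difference of 0.48 when vesicle-treated samples were included (exact permutation p = 0.0844, adjusted p = 0.253). C1ra relative to C1qb has no settled direction between irradiated and Sham samples, since C1ra had only 5 to 23 raw counts in Sham. That difference was -0.26 log2 units (exact permutation p = 0.547, adjusted p = 0.660), 1.06 after 10 counts were subtracted and 0.084 without Sham replicate 2.

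**Figure D4:**
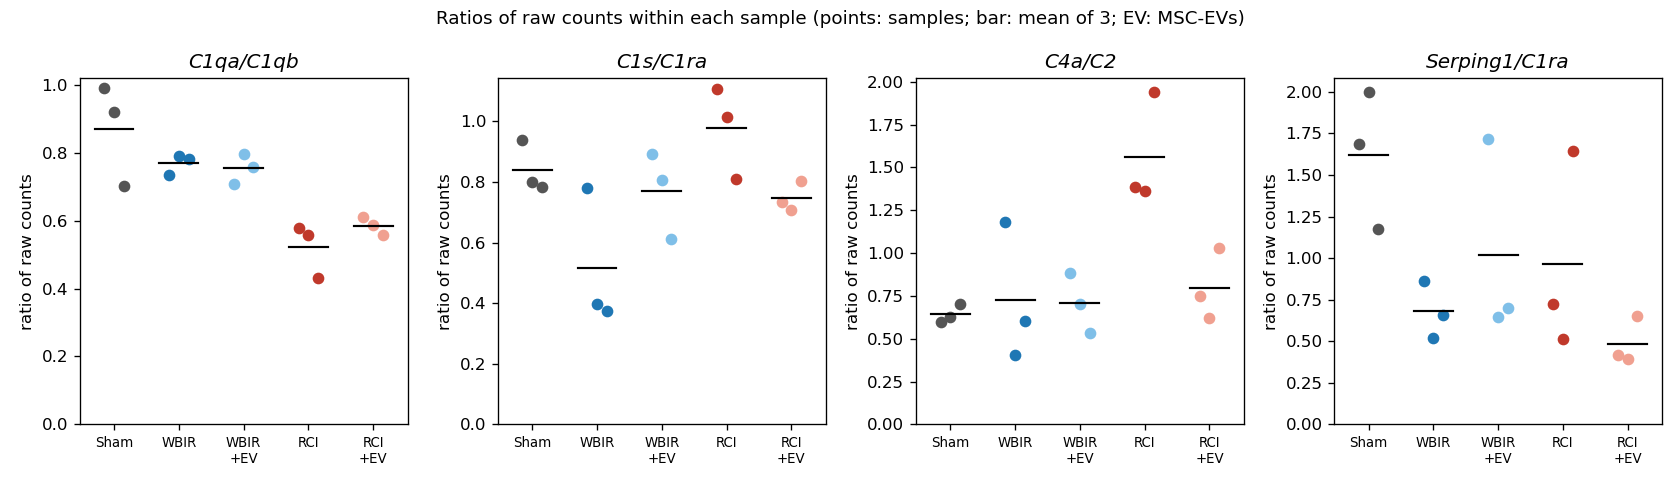
Ratios of raw counts of 2 genes within each sample; points are samples and bars are means of 3. The C1qa to C1qb ratio lies between 0.431 and 0.612 in all burned samples and between 0.709 and 0.797 in all unburned irradiated samples, while the other 3 ratios plotted overlap between burned and unburned irradiated samples once the vesicle groups are included.

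Across the 12 irradiated samples the 7 genes did not vary as one block. On log2 scaled counts, C1ra and C1s had r = 0.92, C1ra and C4a r = 0.84, C1s and C4a r = 0.83, and C1qa and C1qb r = 0.90. C1qa and Serping1 ran in opposite order (r = -0.76, and -0.59 without RCI replicate 3), while C1qa and C2 had r = 0.55, and 0.94 without that sample, and C1qb and C2 had r = 0.74, and 0.94 without it. These values describe 12 samples of 4 groups that share reference-gene scaling, with group differences left in. Outside the set, C1qa was most like Fcgrt (r = 0.99 over the 12, 0.94 over all 15), Tgfbi and Ccr3, and C1qb most like Ly86 (0.99, and 0.80 over all 15), Ctss and Il10rb. C2 was most like Ctsc (0.95), Cybb and Csf2rb. Among the 3 nearest genes were Fn1 (0.83) and Muc1 (0.76) for C1ra, Cxcl12 (0.87) and Fn1 (0.87) for C1s, and Batf3 (0.88) and Myd88 (0.86) for C4a. Serping1 was most like Il7 (0.92), Cxcl10 and Ccl19. Over all 15 samples, r for the pairs named ran from 0.39 for C1ra with Fn1 to 0.98 for C2 with Ctsc, and was 0.84 and 0.94 for C4a with Batf3 and Myd88, 0.94 for C1s with Cxcl12 and 0.64 for Serping1 with Il7.

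Of the 24 other complement genes, 11 passed the count filter. In WBIR 2 of the 11 were higher and 2 lower than Sham (5 and 2 with TMM scaling), where 21.6% of all tested genes were higher and 46.9% lower. In RCI 6 were higher and 1 lower (8 and 1 with TMM scaling), where 26.5% of all tested genes were higher and 43% lower. Cfp, the properdin gene, was higher in both (2.31 ± 0.40 and 2.83 ± 0.41 log2 units), and Cr2, a complement receptor of B cells, was lower in both (-3.91 ± 0.53 and -4.67 ± 0.56). C6 was also higher in both (2.27 ± 0.64 and 2.40 ± 0.64), though its RCI samples overlapped with Sham. Cd55 was lower in WBIR (-2.97 ± 0.65, edgeR adjusted p = 0.0010). In RCI, Cd55 was -0.73 ± 0.60 and did not pass (adjusted p = 0.287). C3, at which the pathways meet, was 2.49 ± 0.50 above Sham in RCI (edgeR adjusted p = 0.00056) and 0.51 ± 0.48 in WBIR (adjusted p = 0.359). Cfb, the alternative pathway counterpart of C2, was 3.81 ± 0.63 above Sham in RCI (adjusted p = 0.00012). Its burn effect averaged over treatment was 1.60 ± 0.40 (edgeR adjusted p = 0.0472), but none of the 11 was called for that effect under TMM or any other scaling tried, or in 8 of the 15 fits that left out 1 sample. In the comparison of RCI+MSC-EVs with RCI, Cfb was -1.63 ± 0.56 and C3 -1.37 ± 0.48 log2 units, and neither passed (edgeR adjusted p = 0.848 for both). Scaled counts in RCI ran from 171 to 1052 for Cfb and from 486 to 1871 for C3. RCI replicate 3 was the highest for both, and fitted values without that sample are not given here for either gene.

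Further lists give the setting of these values. The acute phase and IL-6 response list, which includes 4 of the 7 members, had 11 of 18 tested genes higher than Sham in RCI and 6 of 18 in WBIR (12 and 7 with TMM scaling). All 4 of those members are among the higher genes in both injuries under both scalings. The counts of this list are therefore not separate from the 7. The interferon-inducible list had 9 of 18 higher in RCI and 7 of 18 in WBIR, but 11 and 13 with TMM scaling, so the order of the 2 injuries in that list depends on the scaling. Of all tested genes, 26.5% were higher in RCI and 21.6% in WBIR, and 35.4% and 31.7% with TMM scaling. Of the 6 neutrophil genes tested, 5 were lower than Sham in both WBIR and RCI (4 and 5 with TMM scaling), where 46.9% and 43% of all tested genes were lower.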

How the data were processed

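The authors counted barcodes of the nCounter Mouse Immunology Panel from 100 ng of RNA per sample and normalised them with nSolver; the deposited table holds whole-number counts per gene for 15 samples, with no 0, which look unnormalised because totals differ between samples. Replicates differed by more than counting noise and none was counted as a duplicate. Counts were scaled to the geometric mean of 14 reference genes and tested with edgeR 4.0.16 (R 4.3.3) by the quasi-likelihood test, on the 426 of 547 endogenous genes that averaged 20 or more counts. All 5 groups shared 1 estimate of spread (10 residual degrees of freedom; biological coefficient of variation 33.1%), without a replicate block. Adjustment was Benjamini-Hochberg over all tested genes, and calls needed an adjusted p under 0.05. Ratios were compared by exact two-sided permutation tests of the mean log2 ratio, adjusted over 15. Intervals are 95%.

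Alternatives were 4 other scalings, DESeq2 1.42.0, limma 3.58.1 with pseudocounts of 1 and 10, no filter, a minimum average of 100 counts, fits of only the groups compared, a replicate block and each sample left out. Same-numbered samples deviated together within each injury (6 of 6 correlations between treated and untreated samples above 0.1, from 0.24 to 0.68), which takes the pairing of the vesicle comparisons from the data, not from a label; none of the 8 other pairs of groups had all 3 above 0.1. A replicate block within each injury was therefore added after seeing the data. No cartridge or run is given in the sources used here. The 7 genes and all lists were chosen with earlier results of these data known. All 7 were tested in every comparison; at most 6 other complement genes were to be named, those with the smallest adjusted p against Sham or for the averaged burn effect, with the defining cell markers and, for each of the 7, the 3 tested genes with the highest Pearson r over irradiated samples. The acute phase list also holds Serping1, C4a, C1s and C1ra. One gene among the nearest genes is not reported here.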

Additional observations from a re-analysis of the deposited data

How the results depend on the processing

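The 7 calls in WBIR, WBIR+MSC-EVs and RCI against Sham became 4 in each with a mean of at least 100 counts, because C1ra, C1s and Serping1 were then not tested; all 4 tested were called. Serping1 in RCI+MSC-EVs against Sham passed with TMM, median-of-ratios or total count scaling, with DESeq2, with only the groups compared, and without WBIR replicate 1, WBIR+MSC-EVs replicates 1 or 3 or RCI replicate 3 (adjusted p of 0.0188 to 0.0485). Serping1 in WBIR against Sham missed the threshold with limma at a pseudocount of 10 (adjusted p = 0.0620). The single call in RCI against WBIR (C4a) became 0 with TMM, median-of-ratios, total count or 7-steadiest-reference scaling (C4a adjusted p of 0.0590 to 0.101), with only the groups compared or with the replicate block, and 2 with DESeq2 (C4a and C1s). The burn effect averaged over treatment became 0 calls under the same 4 scalings. Leaving out 1 sample gave 0 to 2 calls in both, 2 without WBIR replicate 1, where C1s was added. The 1 ratio called became 0 with medians, and leaving out 1 sample gave 1 to 2, with Serping1 relative to C1ra added without WBIR+MSC-EVs replicate 1. The replicate block changed no other count of called members. A block of this kind fitted separately for each injury (chosen once the data had been seen) called 0 of the 7 (and 0 of 426 genes) in each of the 4 vesicle comparisons, with C4a at -0.98 (adjusted p = 0.908) and Serping1 at -1.07 (adjusted p = 0.908) for RCI+MSC-EVs against RCI.

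All changes of sign were in differences that did not pass the test, and their causes were not tested. Between WBIR+MSC-EVs and WBIR, C1ra was -0.014 with TMM and -0.044 with total count scaling. Between RCI+MSC-EVs and RCI, C2 was -0.12 with TMM, -0.15 with median-of-ratios and -0.064 with total count scaling. Between RCI and WBIR, C1qb was -0.020 with the 7 steadiest references. Between RCI+MSC-EVs and WBIR+MSC-EVs, C1qa was 0.019 with limma at either pseudocount, and C2 was -0.046 with TMM, -0.089 with median-of-ratios and -0.011 with the 7 steadiest references. For the averaged burn effect, Serping1 was -0.091 with the 7 steadiest references and -0.018 with total count scaling. For the averaged vesicle effect, C1s was 0.0057 with the 7 steadiest references, 0.054 and 0.015 with limma at pseudocounts of 1 and 10, 0.025 with the replicate block and 0.058 with that block fitted per injury, and C2 was -0.012 with TMM and -0.022 with median-of-ratios. The log2 ratio of C1ra to C1qb, irradiated minus Sham, was 1.06 after 10 counts were subtracted, and that of C1s to C1ra for vesicles was -0.049 with medians.

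Leaving out 1 sample gave these ranges where the sign changed. For WBIR+MSC-EVs against WBIR they were -0.14 to 0.40 (C1qa), -0.077 to 0.39 (C1qb), -0.25 to 0.38 (C1ra), -0.15 to 0.42 (C2) and -0.12 to 0.48 (C4a). For RCI+MSC-EVs against RCI they were -0.071 to 0.61 (C1qa), -0.12 to 0.45 (C1qb) and -0.13 to 0.23 (C2). For RCI against WBIR, C1qa was -0.50 to 0.18. For RCI+MSC-EVs against WBIR+MSC-EVs they were -0.29 to 0.25 (C1qa), -0.11 to 0.63 (C1s) and -0.049 to 0.52 (C2). For the averaged burn effect they were -0.27 to 0.071 (C1qa) and -0.11 to 0.43 (Serping1), and for the averaged vesicle effect -0.24 to 0.074 (C1ra), -0.21 to 0.39 (C1s) and -0.058 to 0.23 (C2). For the difference of vesicle effects they were -0.22 to 0.48 (C1qa), -0.28 to 0.31 (C1qb), -0.61 to 0.019 (C1ra) and -0.38 to 0.19 (C2). For log2 ratios they were -0.035 to 0.14 (C1qa to C1qb), -0.041 to 0.27 (C1s to C1ra) and -0.46 to 0.038 (Serping1 to C1ra) for vesicles, and -0.50 to 0.084 (C1ra to C1qb) for irradiated minus Sham. Raw counts of 4 to 27 in Sham limit C1ra, C1s and Serping1.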
